A study of Mesocricetus auratus with 14 samples.

Results

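Transcripts of 10 genes around the negative feedback of the ERK pathway were followed in the liver of Syrian golden hamsters: Dusp6, Dusp1, Dusp4, Spry2, Spry4, Spred1, Spred2, Etv5, Egfr and Errfi1. They were chosen by symbol in the authors' table of normalised values, which lists 10023 genes with a symbol, and all 10 were found there and passed the filter on low counts. All 14 liver samples came from hamsters labelled as fed a high-fat diet, a common model of dyslipidaemia. The label of 7 samples is control and that of the other 7 is DC371739, the code name of the compound they received. The sources used here give no strain, sex, age, dose, route, duration or hour of collection. Whether every sample is its own animal is not stated, so errors and tests measure the spread between samples.

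The ERK pathway carries signals from growth factor receptors such as EGFR through the small GTPase RAS and the kinases RAF, MEK and ERK to the nucleus. Active ERK switches on genes whose products restrain the pathway itself: dual-specificity phosphatases remove phosphate from MAP kinases, Sprouty and SPRED proteins act upstream on RAS and RAF, and ERRFI1 inhibits EGFR. In the liver this pathway is best known for its part in hepatocyte growth and regeneration and in the response to growth factors.

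Libraries held 13672589 to 23948628 counts, and each of the 10 genes had between 28 and 6645 counts in a library. Control replicates 6 and 7 and DC371739 replicate 7 were deeper (22152239 counts or more) than the other 11 (16710097 or fewer), and 2 of these 3 are controls. Values are therefore given over all 14 libraries, with a term for library class (deeper or shallower) in the model, and over the 11 shallower libraries (5 control, 6 DC371739). The deeper class holds 1 DC371739 library, too few for a treatment value of its own. Hepatocyte markers were abundant, with Alb at 106054 CPM (counts per 1e+06, scaled for library composition) in control samples. None of the 7 tested differed at an adjusted p under 0.05 in edgeR's test, and 4 log2 fold changes were positive and 3 negative. Macrophage markers were higher in 3 of 11 genes tested and lower in none, beside 1.24% of all genes called higher. Of the 11 log2 fold changes 9 were positive and 2 negative, with a median of 0.50. Their summed level was 612 to 892 CPM in control and 688 to 1067 CPM in DC371739 samples. No marker of endothelial (6 tested), stellate and fibroblast (8), cholangiocyte (5), neutrophil (2) or lymphocyte (4) cells passed the test, and no marker measured was at 0 in all libraries. In the same order, 5, 7, 5, 2 and 4 of these markers had a positive log2 fold change. The list medians were 0.27, 0.41, 0.23, 0.58 and 0.50, beside -0.02 over all genes tested. The part of cell composition in the results below was not tested, and in whole liver fewer cells of a type and less RNA per cell cannot be told apart.

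Dusp6 and Dusp1 were the members with the lowest log2 fold changes, Errfi1 followed, and Egfr had the highest. The Sprouty and SPRED genes, Dusp4 and Etv5 differed less, in either direction. The set was put together with the difference between treated and control samples already known, so the values of these 10 genes in that comparison are a description and not a test of them.

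**Figure D1:**
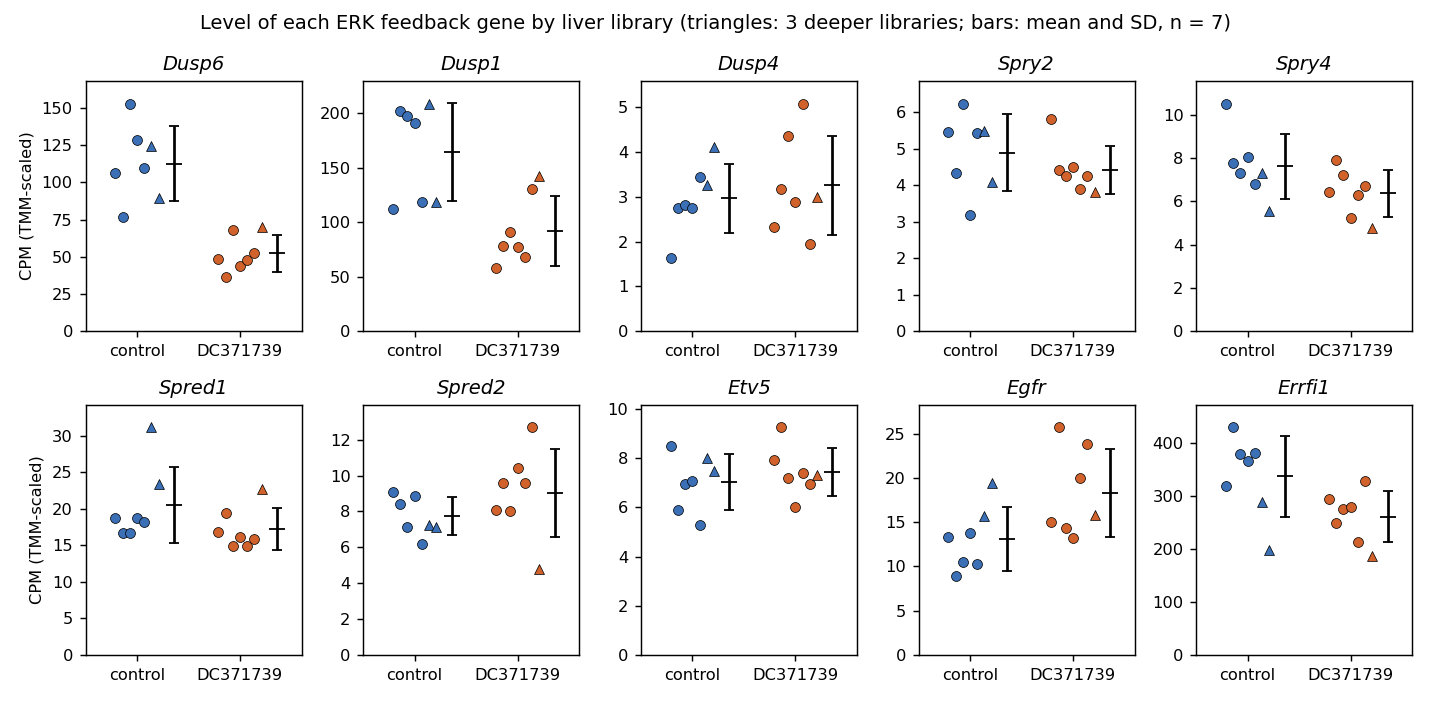
Level of each of the 10 genes in every liver library, in CPM on a linear axis from 0, for control (blue) and DC371739 (orange); triangles are the 3 deeper libraries and bars show the mean and SD over 7 libraries. For Dusp6 every treated library, at 36.5 to 69.9 CPM, sits below every control library, at 76.5 to 152.8 CPM, while the groups of the other 9 genes overlap.

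DUSP6 is a cytoplasmic phosphatase that acts with high selectivity on ERK, and its transcript is itself induced by ERK activity. Dusp6 ran from 76.5 through a median of 109.3 to 152.8 CPM in control samples and from 36.5 through 48.6 to 69.9 CPM in DC371739 samples. All 7 treated libraries lay below the lowest control, and the gap stayed among the shallower libraries, where controls began at 76.5 CPM and treated libraries ended at 67.9 CPM. The highest treated value came from the deeper replicate 7. Means were 112.6 ± 25.5 CPM (SD, n = 7) in control and 52.4 ± 12.4 CPM (SD, n = 7) in treated samples. The log2 fold change, DC371739 minus control, was -1.10 (SE 0.16, 95% interval -1.45 to -0.76). Of 12166 genes tested, 0.403% had treated values entirely below control values, 0.296% had them entirely above, and 0.164% had a lower log2 fold change than Dusp6. The within-group scatter of Dusp6 was of an ordinary size: its biological coefficient of variation was 0.219, against a median of 0.198 over all genes tested. In the coordinates of the count table, a build that the sources used here do not name, Dusp6 (ENSMAUG00000000859) spans 7238 to 12150 on the plus strand of scaffold APMT01209908.1, as the only gene listed there, and its counts cover 3446 bases of exon.

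DUSP1 is a nuclear phosphatase of p38 and JNK as well as ERK, and its gene is an early response gene that glucocorticoids also induce. Dusp1 ran from 112.0 through a median of 191.2 to 208.7 CPM in control samples and from 58.0 through 78.0 to 142.2 CPM in DC371739 samples. The controls fell into a high set of 4 libraries at 191.2 CPM and above and a low set of 3 at 119.0 CPM and below, each with 1 deeper library. In the treated group 5 libraries lay below the lowest control, and replicates 6 and 7, at 130.7 and 142.2 CPM, lay within the control range. The log2 fold change was -0.83 (SE 0.21, 95% interval -1.29 to -0.38), from 164.3 ± 45.0 to 92.2 ± 32.0 CPM, and it was -0.96 (SE 0.23) over the shallower libraries. Of all genes tested 0.46% had a lower log2 fold change than Dusp1 over all 14 libraries. Dusp1 was also the most variable member within groups, with a coefficient of 0.282, above that of 79.8% of genes. Dusp1 (ENSMAUG00000008804) spans 494812 to 497672 on the minus strand of KB708373.1.

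DUSP4, a nuclear phosphatase of the same family, was the least abundant member and did not share this pattern. Dusp4 ran from 1.63 through 2.82 to 4.10 CPM in control and from 1.95 through 2.99 to 5.08 CPM in DC371739 samples. The groups overlapped over most of their range, and 5 treated libraries lay above the control median. With 28 to 86 counts a library, its log2 fold change of 0.13 (SE 0.23) had a 95% interval of -0.35 to 0.61. That interval lies wholly above the point estimates of Dusp6 and Dusp1.

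At the top of the pathway, Egfr, the receptor of EGF and related ligands and abundant on hepatocytes, ran the other way. Egfr ran from 8.93 through 13.3 to 19.4 CPM in control and from 13.2 through 15.8 to 25.7 CPM in DC371739 samples. DC371739 replicates 2, 5 and 6 lay above every control, at 25.7, 19.95 and 23.8 CPM, and the other 4 stood at 13.2 to 15.8 CPM. The 2 highest controls were the deeper libraries, at 15.7 and 19.4 CPM, while the 5 shallower controls ended at 13.8 CPM. The log2 fold change was accordingly 0.47 (SE 0.19, 95% interval 0.07 to 0.87) over all 14 libraries and 0.72 (SE 0.18, 95% interval 0.33 to 1.12) over the shallower ones.

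ERRFI1, also called MIG6, binds the kinase domain of EGFR and blocks it. Errfi1 ran from 198.5 through 365.4 to 429.1 CPM in control and from 187.0 through 276.1 to 327.5 CPM in DC371739 samples. All 7 treated libraries lay below the control median, and 1 lay below the lowest control. In each group the deeper libraries were low: the 2 deeper controls stood at 198.5 and 289.4 CPM against 317.8 to 429.1 CPM in the other controls, and the deeper treated library at 187.0 CPM against 212.8 to 327.5 CPM. The log2 fold change was -0.37 (SE 0.16) over all 14 libraries, -0.44 (SE 0.10) with the class term and -0.45 (SE 0.10) over the shallower libraries. The estimate thus changed little while its standard error shrank.

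Sprouty proteins are induced by ERK and interfere with signalling from receptor tyrosine kinases to RAS. Spry2 ran from 3.18 through 5.44 to 6.24 CPM in control and from 3.83 through 4.27 to 5.82 CPM in DC371739 samples. Its treated values all lay inside the control range, and its log2 fold change was -0.15 (SE 0.15, 95% interval -0.47 to 0.18). Spry4 ran from 5.54 through 7.32 to 10.5 CPM in control and from 4.76 through 6.44 to 7.89 CPM in DC371739 samples. Of the treated libraries 6 lay below the Spry4 control median and 2 below the lowest control, with a log2 fold change of -0.26 (SE 0.15, 95% interval -0.57 to 0.05).

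SPRED proteins bring the RAS-inactivating protein neurofibromin to the membrane. Spred1 ran from 16.7 through 18.8 to 31.2 CPM in control and from 14.9 through 16.1 to 22.8 CPM in DC371739 samples. Its main contrast was between library classes: the deeper libraries held the 3 highest values, 23.5 and 31.2 CPM among controls and 22.8 CPM among treated, and the other 11 stood at 14.9 to 19.4 CPM. Spred1 had a log2 fold change of -0.25 (SE 0.15) over all 14 libraries and -0.12 (SE 0.09) over the shallower ones. Spred2 ran from 6.18 through 7.26 to 9.06 CPM in control and from 4.80 through 9.56 to 12.7 CPM in DC371739 samples. DC371739 replicate 7, a deeper library, gave the lowest Spred2 value of all 14, and 4 other treated libraries lay above every control. Spred2 had a log2 fold change of 0.22 (SE 0.17, 95% interval -0.13 to 0.58), and its size rests on few libraries: it was 0.33 without DC371739 replicate 7, 0.12 without replicate 6 of that group and 0.14 with the class term.

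ETV5 is an ETS transcription factor whose gene is a widely used readout of ERK activity. Etv5 ran from 5.27 through 7.09 to 8.48 CPM in control and from 6.03 through 7.31 to 9.25 CPM in DC371739 samples. The groups overlapped almost fully, and Etv5 was the least variable member within groups, with a coefficient of 0.161. Its log2 fold change was 0.08 (SE 0.13), with a 95% interval of -0.19 to 0.35 that leaves out changes of the size seen for Dusp6 and Dusp1.

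**Figure D2:**
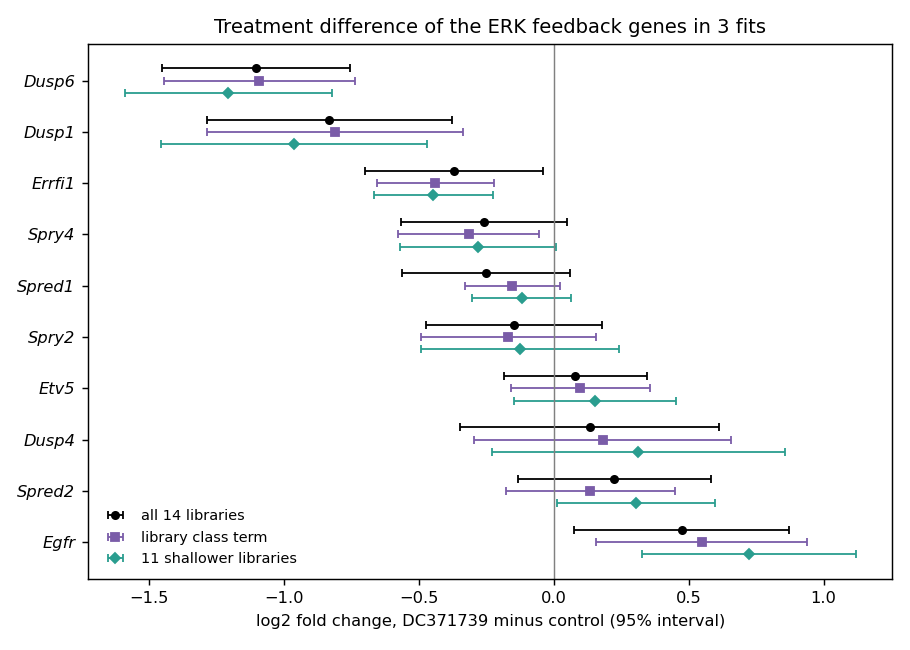
Log2 fold change, DC371739 minus control, with its 95% interval for each of the 10 genes in 3 fits: all 14 libraries (black), with a library class term (purple) and the 11 shallower libraries (green). Dusp6 lies between -1.21 and -1.09 in the 3 fits and Etv5 between 0.08 and 0.15, and Egfr moves from 0.47 to 0.72 when the deeper libraries are left out.

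Counts of members past the threshold, an adjusted p of 0.05 over all genes in edgeR's quasi-likelihood test, are given as description alone. Over all 14 libraries 1 of the 10, Dusp6, was called lower and none higher, beside 0.608% of all genes called lower and 1.24% called higher. At an unadjusted p under 0.05 the number was 4 of 10 in either direction, beside 20.4% of all genes. With the class term 3 of 10 were called lower (Dusp6, Dusp1 and Errfi1) and none higher, beside 6.7% and 5.62% of all genes. Over the shallower libraries the same 3 were called lower and Egfr higher, beside 10.5% and 11% of all genes. DC371739 replicate 7 and control replicate 7 decided part of this: without the former Dusp1 was also called, and without the latter Dusp1 and Errfi1 were. The share of all genes called, in either direction, rose as well. It was 8.75% without DC371739 replicate 7 and 4.43% without control replicate 7, against 1.85% over all 14 libraries. Over the 10 genes 6 log2 fold changes were negative and 4 positive, with a median of -0.20, beside a median of -0.02 over all genes tested. In the authors' deposited table, too, 1 of the 10 had an adjusted p under 0.05, and its log2 fold changes differ from those given here by at most 0.0035.

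Levels compared per length of transcript spanned a wide range. By the authors' FPKM (counts divided by exon length and by a constant per library) Errfi1 (median 157.2 FPKM), Dusp1 (128.8 FPKM) and Dusp6 (40.9 FPKM) led in control samples, and the same 3 led in DC371739 samples at 119.5, 52.7 and 18.2 FPKM. The ranges of Errfi1 and Dusp1 overlapped in control samples, at 86.6 to 185.4 and 75.6 to 144.0 FPKM, and Dusp6 lay apart from both at 28.8 to 57.2 FPKM. A second tier ran from Egfr (4.59 FPKM) and Spred1 (4.31 FPKM), which overlapped, through Spred2 (3.11 FPKM), Spry2 (3.05 FPKM) and Etv5 (2.31 FPKM) to Spry4 (2.14 FPKM), the last 4 overlapping from each to the next. Dusp4 was at the bottom with 0.76 FPKM. Between the groups of samples, Spred1 and Spred2 exchanged places in this order, as did Spry2 and Etv5, each time between genes whose ranges overlapped in DC371739 samples.

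How the members varied from library to library within a group was not used to choose them. Deviations of log2 CPM from the group mean were compared over the 11 shallower libraries for all 45 pairs. For Dusp6 Pearson's r ran from -0.40 with Spred1 (rho = -0.25, exact permutation p = 0.218 and 0.465, adjusted 0.742 and 0.788) to 0.20 with Dusp1 (rho = 0.23, exact permutation p = 0.570 and 0.534, adjusted 0.930 and 0.801). Without the 2 farthest from the Dusp6 median the values of r were -0.63 and 0.47, and over all 14 libraries with group and class means removed -0.16 and 0.42. Spry4 and Etv5, both ERK targets, had the highest value (r = 0.84, Spearman's rho = 0.69), and r was 0.70 without the 2 libraries farthest from the Spry4 median. In an exact two-sided permutation test within groups this pair had p = 0.0038 for r and 0.030 for rho, and adjusted over 45 pairs 0.170 and 0.758, so that it did not pass. Etv5 with Egfr followed (r = 0.61, rho = 0.55, exact permutation p = 0.046 and 0.082, adjusted 0.667 and 0.788), with r = 0.63 without the 2 farthest libraries. No pair passed after adjustment. The values of r were positive for 22 pairs and negative for 23, with a median of -0.05. All points share libraries, and with them depth and composition.

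**Figure D3:**
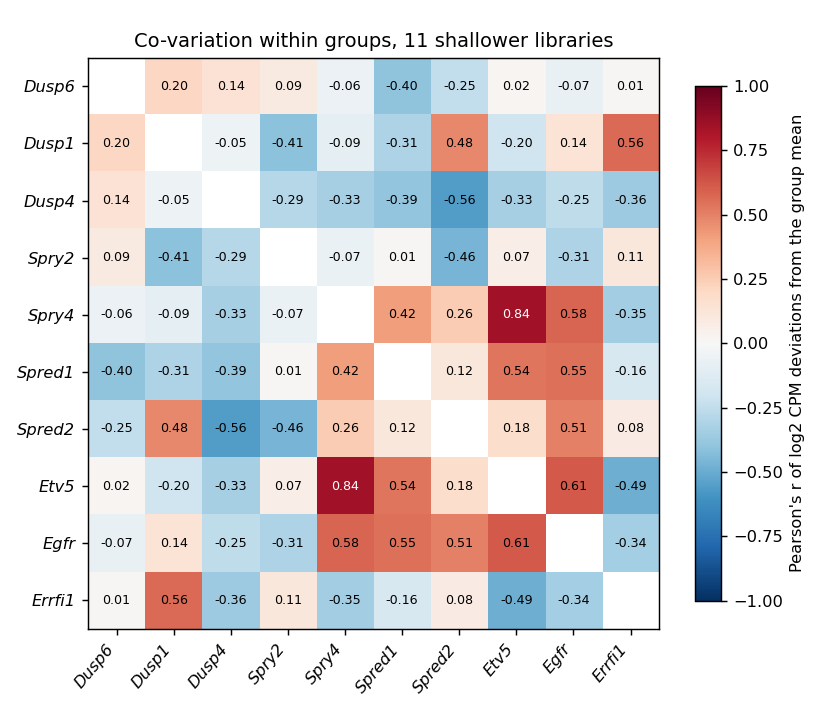
Pearson's r between the 10 genes for deviations of log2 CPM from the group mean over the 11 shallower libraries (5 control, 6 DC371739), red for positive and blue for negative. Spry4 and Etv5 stand out at 0.84, and the values of Dusp6 lie between -0.40 and 0.20.

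The 5 genes with a symbol whose deviations were most like those of Dusp6 over the same 11 libraries were Cdh1 (r = 0.92, rho = 0.94), Nup155 (0.89 and 0.93), Def8 (0.88 and 0.85), Dync1li1 (0.88 and 0.71) and Tpd52 (0.88 and 0.93). They were picked as the highest among 10011 tested genes with a symbol, over few libraries, so these values are a description. Over all 14 libraries with group and class means removed, r was 0.49 for Cdh1, 0.77 for Nup155, 0.35 for Def8, 0.75 for Dync1li1 and 0.70 for Tpd52. None of the 5 was called between the groups of samples. Their log2 fold changes were 0.43 (SE 0.19) for Cdh1, which encodes E-cadherin, -0.20 (SE 0.15) for Nup155, -0.03 (SE 0.07) for Def8, -0.01 (SE 0.09) for Dync1li1 and 0.03 (SE 0.12) for Tpd52.

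The rest of the pathway was followed with 6 lists of 95 further genes, of which 73 had a symbol in the table and all 73 were tested. Over all 14 libraries 1 of the 73 rose with DC371739, none fell and 72 did not pass, that is 1.37% called, beside 1.85% of all genes. At an unadjusted p under 0.05 the share was 23.3% (17 of 73), beside 20.4% of all genes. Their median log2 fold change was 0.02, beside -0.02 over all genes.

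Among 8 further dual-specificity phosphatases, 1 rose and none fell. This was Dusp16, a phosphatase that acts mainly on JNK and p38. Dusp16 ran from 3.89 through 6.68 to 9.21 CPM in control and from 8.50 through 10.8 to 14.7 CPM in DC371739 samples, and 6 of 7 treated libraries lay above every control. The log2 fold change was 0.81 (SE 0.20, edgeR adjusted p = 0.0449), with adjusted p of 0.00086 to 0.108 over the 27 alternatives. The call was lost with any of 10 single libraries left out (control replicates 1, 2, 3 and 5 and DC371739 replicates 1 to 6). Dusp16 (ENSMAUG00000010601) spans 2272988 to 2312593 on the minus strand of KB708163.1. Dusp18 came next (0.58, SE 0.19, adjusted p = 0.110). Dusp5 and Dusp7, named for their action on ERK after their values were seen, had log2 fold changes of -0.28 (SE 0.20) and -0.11 (SE 0.09), and neither passed (edgeR adjusted p = 0.445 and 0.534).

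Other feedback inhibitors had 9 tested members and no call over all 14 libraries. Spry1, the remaining Sprouty gene measured, averaged 5.14 ± 1.22 CPM in controls and 4.02 ± 1.02 CPM in treated samples (SD, n = 7; log2 fold change -0.35, SE 0.20, edgeR adjusted p = 0.327), and Rasa2, a RAS-inactivating protein, had a log2 fold change of -0.31 (SE 0.18, adjusted p = 0.340).

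Growth factor ligands had 9 tested members, none called. Log2 fold changes were negative for 8 of the 9 over all 14 libraries, beside 53.4% of all genes, and for 6 of the 9 both in the fit with a class term and in that of the shallower libraries. Hbegf, which activates EGFR, was near the floor of the data at 0.91 ± 0.60 and 0.58 ± 0.11 CPM (log2 fold change -0.66, SE 0.33, edgeR adjusted p = 0.269). Without control replicate 6 its log2 fold change was -0.25, and over the shallower libraries -0.21. Fgf1 was at -0.33 (SE 0.21, adjusted p = 0.395).

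Receptors had 10 tested members and none called over all 14 libraries. Fgfr1 ran from 1.48 to 2.93 CPM in control and from 2.52 to 4.07 CPM in DC371739 samples (log2 fold change 0.58, SE 0.18, edgeR adjusted p = 0.091), and all 7 treated libraries lay above the control median. Epha4 was at -0.50 (SE 0.22, adjusted p = 0.221).

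The core cascade from adaptors to ERK had 21 tested members, none called over all 14 libraries. The adaptor Gab1 had a log2 fold change of 0.54 (SE 0.18, edgeR adjusted p = 0.104).

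Other target genes of ERK signalling, with the factors Srf, Elk1, Elk3 and Elk4 through which it acts, had 16 tested members and no call. Of these, 10 stood below 0 on the log2 scale and 6 above, beside 53.4% of all genes below 0. The list median was -0.06, beside -0.02 over all genes tested. Fos, a subunit of the AP-1 transcription factor, ran from 8.30 through 32.1 to 110.5 CPM in control and from 2.05 through 4.07 to 30.6 CPM in DC371739 samples. Egr1, an immediate early zinc finger factor, ran from 25.4 through 31.8 to 78.3 CPM in control and from 6.09 through 10.7 to 50.3 CPM in DC371739 samples. All 7 treated libraries lay below the control median for Fos and 6 of 7 did for Egr1, but the spread within groups was wide and neither passed (Fos log2 fold change -1.81, SE 0.63, edgeR adjusted p = 0.119; Egr1 -1.29, SE 0.46, adjusted p = 0.132). Their adjusted p over the alternatives ran from 0.028 to 0.242 for Fos and from 0.049 to 0.234 for Egr1. Fosb and Junb, named after their values were seen, had log2 fold changes of -1.95 (SE 0.76) and -0.73 (SE 0.33). Neither passed (edgeR adjusted p = 0.165 and 0.231). Egr2, a relative of Egr1, stood on the other side of 0 at 0.92 (SE 0.34, edgeR adjusted p = 0.145, from 0.024 to 0.299 over the alternatives).

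With the class term 6 of the 73 passed, 3 higher (Dusp16, Fgfr1 and Sos2) and 3 lower (Fgfr4 and Hras among them), a share of 8.22% beside 12.3% of all genes. Over the shallower libraries 10 of the 73 passed, a share of 13.7% beside 21.5%. Those 7 that were higher were Dusp16, Lrig1, Fgfr2, Sos2, Gab1, Shoc2 and Egr2, and 3 were lower, again with Fgfr4 and Hras among them. Fgfr4, Sos2, Hras, Lrig1, Fgfr2, Shoc2 and Egr2 were named after their values in these fits were seen. In all 3 fits the share of these pathway genes that passed was below that of all genes, but in the main fit it rests on 1 gene. At an unadjusted p under 0.05 in edgeR's test the main fit had the higher share among pathway genes, 23.3% beside 20.4% of all genes. That share was 30.1% beside 31.5% once library class was modelled, and 35.6% beside 36.6% when deeper libraries were left out. These differences were not tested.

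**Figure D4:**
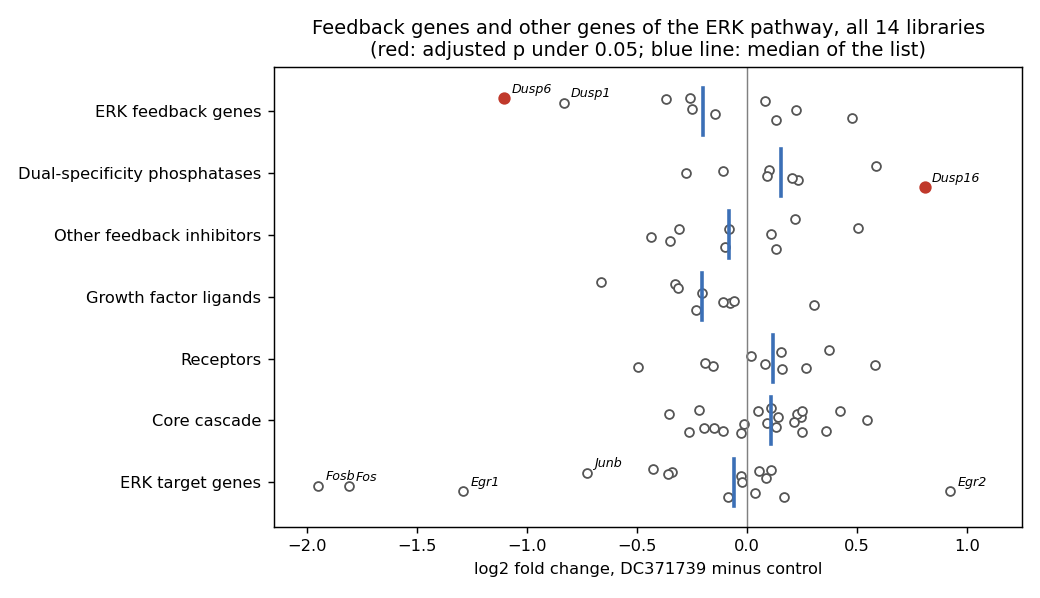
Log2 fold change, DC371739 minus control, over all 14 libraries for the 10 feedback genes and for 6 lists of other ERK pathway genes; each point is a gene, filled red where its adjusted p was under 0.05, and blue lines are list medians. Dusp6 and Dusp16 are the 2 filled points, at -1.10 and 0.81, and Fosb and Fos lie far to the left, at -1.95 and -1.81, without passing.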

How the data were processed

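The members and gene lists were chosen with earlier results of these data known, and the named genes followed a rule: all 10 feedback genes, each called pathway gene, the 2 members of smallest p in each pathway list, and the 5 genes most like Dusp6. Some genes the rule takes are left out of the text, and others, named after their values were seen, are marked there; Srf, Elk1, Elk3 and Elk4 are named without values. Per the file headers, the authors deposited whole-number counts for 22283 genes and FPKM for 10023 genes, and beside each FPKM row stand their log2 fold change, log2 CPM, p-value and its adjusted form. The tools named in the submitters' processing notes are HISAT2 (2.2.1), featureCounts (version 2.0.0) and edgeR; the sources used here give no order, settings, strand or build. Exon length in the deposited table is a length in bases.

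The main test was that of edgeR (version 4.0.16, R 4.3.3; quasi-likelihood F-test, robust, TMM scaling, minimum count of 10 in the default filter, treatment alone), with Benjamini-Hochberg adjustment over 12166 genes. CPM use TMM-scaled totals, and log2 CPM a prior count of 2. Intervals are from the model and its moderated degrees of freedom. Alternatives were RLE, upper-quartile or no scaling, other filters, DESeq2 1.42.0, limma 3.58.1 (voom with quality weights, or log2(FPKM + 1) and log2(FPKM + 0.1)), a replicate block, a library class term, and leaving libraries out. The test was checked on simulated counts without a difference between library classes. It called 26 of 64 genes changed 1.5-fold, 50 of 62 changed 2-fold and 66 of 71 changed 3-fold, beside 9 of 11911 unchanged genes. Some genes changed 2-fold or 3-fold were thus missed, and a gene that did not pass may still differ, also by such a fold. No library pair in a group agreed within sampling noise (among 42 pairs, chi-square per degree of freedom was 11.2 or more). No other gene overlaps 8 of the 10; genes overlapping Spry4 and Spred2 averaged 0.79 and 0.50 counts a library.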

Additional observations from a re-analysis of the deposited data

Results flagged for a closer look

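In the 7 DC371739 samples, Spry2 stood at 5.82 CPM in replicate 1, and the next highest was 4.49 CPM; the gap takes 0.667 of the whole range of the group, above Dixon's 95% critical value for 7 samples. Of 20 sets of 7 values checked (10 genes in 2 groups) this was the 1 that passed, and chance flags about 1 in 20.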

How the results depend on the processing

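Dusp6 passed in all 27 alternatives, with log2 fold changes of -1.23 to -1.02. The count of feedback genes called was 1 over all 14 libraries, 2 with DESeq2, 4 with limma-voom, 2 with limma on log2(FPKM + 1) and a mean FPKM of at least 1 (9 of the 10 genes), 3 with the class term, 4 without the 3 deeper libraries, and 1 to 3 when each library was left out in turn. The count of other pathway genes called was 1, and it was 3 with DESeq2, 13 with limma-voom, 6 with the class term, 10 without the 3 deeper libraries, and 0 to 5 when each library was left out in turn. Over all genes these fits called 842 (DESeq2), 2727 (limma-voom), 1499 (class term) and 2635 genes (shallower libraries), against 225, and 25 to 1069 when each library was left out. Upper-quartile scaling gave 223 higher and 65 lower calls, library size alone 124 and 36, and no expression filter 138 and 46, against 151 and 74. A block on the replicate number called 1 feedback gene (Dusp6), 0 other pathway genes and 8 genes in all. Correlations of same-numbered deviations ran from -0.13 to 0.12 for replicates 1 to 6 and stood at 0.55 for replicate 7, where both libraries are deeper. By closeness, replicate numbers gave no sign of pairing: 0 of 7 treated libraries was closest to the control of its own number. Of the 10 genes, 9 kept their sign in every alternative in which they were tested. Dusp4 ran from -0.0069 (without DC371739 replicate 5) to 0.23 (without control replicate 7) when each library was left out in turn, and kept its sign in 24 of 25 alternatives; with 28 to 86 counts a library its depth limits what can be seen. The cause of these differences was not tested.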
